A study of Mus musculus with 6 samples.

Results

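The genes described here are 10 ligands of the tumor necrosis factor (TNF) superfamily, Fasl, Tnfsf10, Tnfsf4, Tnfsf8, Tnfsf9, Tnfsf11, Tnfsf14, Cd40lg, Lta and Ltb. The rule took them by name as ligand genes of the family and used no measured value, and they make up 10 of the 26128 genes listed in the count table. The data are bulk RNA-seq of double negative T (DNT) cells, T cells that carry CD3 but neither CD4 nor CD8, after 48 h of culture with or without IL-33, a cytokine of the IL-1 family that acts through the receptor ST2. The comparison asks whether IL-33 changed the level of the ligands by which DNT cells can signal to neighbouring cells.

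All libraries came from DNT cells of adult wild type C57BL/6 mice. CD4+CD25- T cells were converted in vitro for a week with mature dendritic cells of DBA/2 mice and IL-2, then sorted as CD3+NK1.1-CD4-CD8- cells. The labels name the spleen as the source, and the methods name spleens and lymph nodes. Both groups were kept on anti-CD3/CD28 beads, so the control is a stimulated cell and not a resting one. The control group held 3 libraries without IL-33 and the other group 3 libraries with IL-33 at 50 ng/ml. Nothing in the sources ties the 3 replicates to separate mice, conversions or wells, and p-values measure only the spread between these libraries, which may be technical.

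The libraries held 20256342 to 22336050 counts each, and 14671 genes passed the filter on low counts, among them all 10 ligands. Levels are given in CPM, counts in 1000000 counted reads after TMM scaling. A count of 0 would have allowed up to 0.134 to 0.148 CPM, which covers counting error only. The summed level of 10 T cell identity genes, with Cd3d, Cd3e and Trac, was 3577 to 3720 CPM in control and 3643 to 3789 CPM with IL-33. Of the 10, 1 was called higher and 2 lower, where 27.5% of all genes tested were called. Cd4 stood at 0.225 to 1.08 CPM in the 6 libraries (log2 fold change -1.31, adjusted p = 0.023). Cd8a, which encodes one chain of CD8, stood at 535 to 561 CPM in control and at 393 to 410 CPM with IL-33, although the cells were sorted as CD8-. Cd8b1, the other chain, stood at 8.12 to 11.4 CPM in control and 14.0 to 18.1 CPM with IL-33 (log2 fold change 0.75), and Klrb1c, a gene of NK1.1, at 30.5 to 35.0 and 24.5 to 26.8 CPM.

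Most ligands of this family are made as membrane proteins that form trimers, and many act on a neighbouring cell by clustering a receptor of the TNF receptor superfamily. Fas ligand and TRAIL engage receptors with a death domain and can start caspase-driven apoptosis, and Fas ligand is a well known effector of cytotoxic and regulatory T cells. The lymphotoxins and LIGHT act on stromal and lymphoid cells, while OX40L, CD30L, the CD137 ligand, CD40L and RANKL carry costimulatory or differentiation signals between lymphocytes, antigen-presenting cells and bone cells. Activated T cells are a main source of several of them, in patterns that depend on the subset and on the time after stimulation.

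Most of the ligands stood lower with IL-33. Tnfsf14 (LIGHT) fell by 49.4%, and smaller falls were measured for Tnfsf10 (TRAIL), Tnfsf8 (CD30L), Fasl and Ltb. Tnfsf4 (OX40L) went the other way and rose by 34.9%. Of the 10 ligands, 7 were called, against 27.5% of all genes tested. Of these, 6 were lower and 1 was higher at an adjusted p under 0.05 (edgeR's quasi-likelihood test, Benjamini-Hochberg adjusted over the 14671 genes), where 13.9% of all genes tested were called lower and 13.6% higher. Past the further threshold of a 1.5-fold change there was 1, Tnfsf14, on the lower side and 0 on the higher side. Of all genes tested, 4.87% were past both thresholds, 2.39% lower and 2.47% higher. Without any threshold 9 of 10 ligands stood lower, against 50.1% of all genes. The CPM of the groups did not overlap for 8 of 10 ligands, against 38.9% of all genes tested. The median log2 fold change was -0.33 over the 10 ligands and -6.3e-04 over all genes tested. The summed level of the 10 was 572 to 586 CPM in the control libraries and 445 to 477 CPM in the IL-33 libraries. In bulk RNA, fewer cells that make a transcript and less of it in each cell cannot be told apart.

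**Figure D1:**
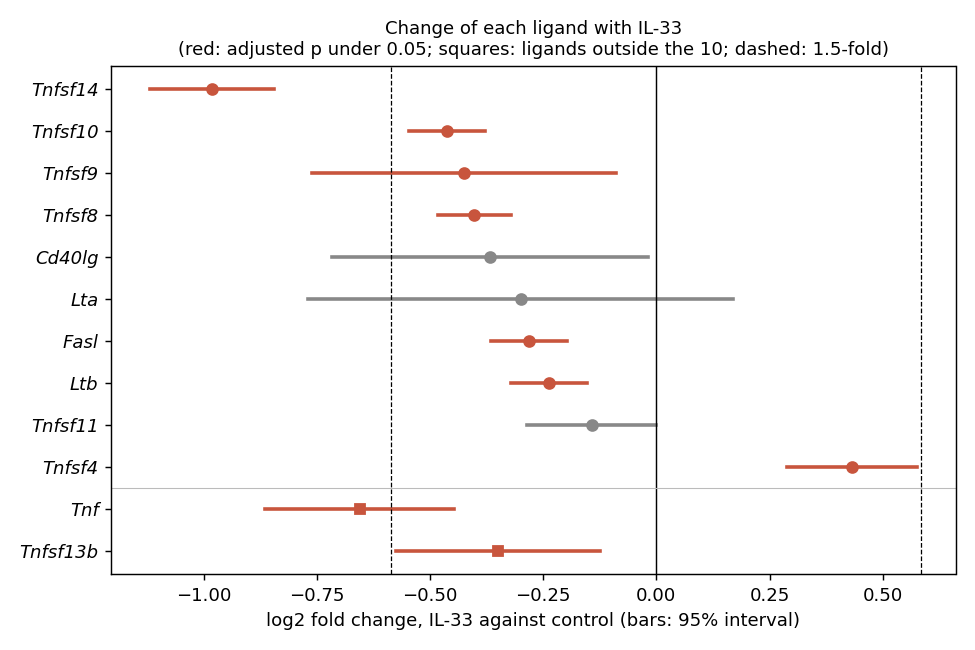
Log2 fold change of each ligand, IL-33 against control, with the 95% interval as a bar, 3 libraries per group. Red marks an adjusted p under 0.05 and grey the rest, squares mark Tnf and Tnfsf13b, which are not among the 10, and dashed lines stand at a 1.5-fold change. Tnfsf14 lies at -0.98 with its whole interval beyond the line, and Tnfsf4 at 0.43 alone on the right.

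The sequences just before the start sites of 5 of the ligands that fell are shown because the 5 moved in one direction. Tnfsf14 was taken by the rule for genes past both thresholds, and the others were chosen after their values had been seen. Promoters of 7 of the 10 ligands were matched in a RefSeq table (GRCm38.p6), whose windows span 250 bases before the start and 50 after it. Tnfsf4, the only ligand that stood higher, had no window there, nor had Tnfsf9 and Cd40lg. Only bases upstream of both the RefSeq and the GENCODE start are printed, 5′ to 3′ on the strand of the gene. Capitals mark matches, on either strand, to GGAAA, the core bound by NFAT, to TGANTCA, an AP-1 element, or to the κB consensus. The stretches are chr17:57194182-57194431 (minus strand) for Tnfsf14, chr1:161788496-161788745 (minus) for Fasl, chr3:27316827-27317027 (plus) for Tnfsf10, chr17:35194257-35194438 (plus) for Ltb and chr4:63861348-63861534 (minus) for Tnfsf8.
Tnfsf14: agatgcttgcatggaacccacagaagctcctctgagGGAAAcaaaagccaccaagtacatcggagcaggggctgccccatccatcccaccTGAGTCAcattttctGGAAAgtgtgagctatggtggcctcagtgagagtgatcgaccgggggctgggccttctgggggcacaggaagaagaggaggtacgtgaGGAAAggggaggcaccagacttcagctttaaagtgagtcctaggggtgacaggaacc
Fasl: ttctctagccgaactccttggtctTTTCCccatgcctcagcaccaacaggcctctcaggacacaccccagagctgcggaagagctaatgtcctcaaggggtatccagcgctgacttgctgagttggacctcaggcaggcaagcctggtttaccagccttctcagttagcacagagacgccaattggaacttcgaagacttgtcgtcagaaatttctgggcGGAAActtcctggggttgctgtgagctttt
Tnfsf10: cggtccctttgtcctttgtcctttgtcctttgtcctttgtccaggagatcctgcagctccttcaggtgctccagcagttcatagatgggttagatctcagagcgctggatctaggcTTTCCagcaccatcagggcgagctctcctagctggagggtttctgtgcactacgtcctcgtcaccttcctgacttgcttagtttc
Ltb: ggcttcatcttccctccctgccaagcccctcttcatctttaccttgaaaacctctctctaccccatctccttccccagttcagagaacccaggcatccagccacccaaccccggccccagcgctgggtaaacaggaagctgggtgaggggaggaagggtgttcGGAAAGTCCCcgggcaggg
Tnfsf8: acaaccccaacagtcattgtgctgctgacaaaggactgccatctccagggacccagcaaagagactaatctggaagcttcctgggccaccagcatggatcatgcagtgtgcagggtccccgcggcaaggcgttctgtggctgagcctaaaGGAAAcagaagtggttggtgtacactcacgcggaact

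The stretch of Tnfsf14 held 3 matches to GGAAA and 1 to TGANTCA, and its whole 300-base window held 4 of the former. The NFAT core was found in all 7 windows matched, and 61.3% of the 32851 windows of the table held it. All 7 belong to ligands that stood lower with IL-33, so they cannot be set against a ligand that rose. The AP-1 element was found in Tnfsf14 and in none of the other 6 windows, and 7.8% of all windows held it. The κB consensus was found in Ltb and in no other of the 7, where it overlaps the GGAAA match, and 8.5% of all windows held it. These are matches of letters, and binding was not measured.

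Tnfsf14 encodes LIGHT, which binds HVEM and the lymphotoxin β receptor and is a costimulator of T cells. The gene (ENSMUSG00000005824) lies at chr17:57189492-57194177 in GRCm38, on the minus strand. It stood at 42.3, 47.7 and 42.7 CPM in control and at 21.6, 21.9 and 23.7 CPM with IL-33. Every IL-33 library lay well below every control library, and the gap between the groups was wider than the spread within either. The mean fell from 44.2 ± 2.99 to 22.4 ± 1.13 CPM (SD, n = 3), a log2 fold change of -0.98 (SE 0.069, 95% interval -1.12 to -0.84, adjusted p = 3.2e-23 by edgeR).

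**Figure D2:**
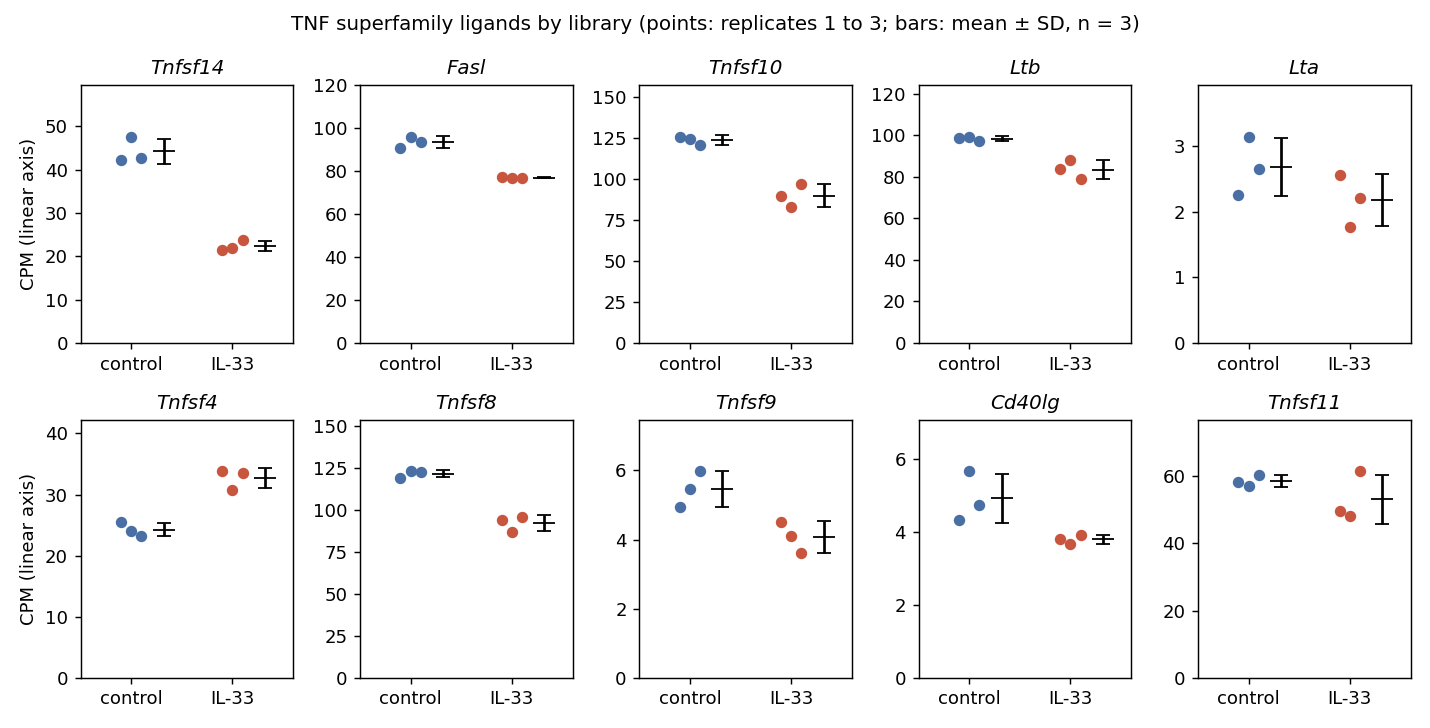
Level of each of the 10 ligands in CPM, on a linear axis from 0, in the 3 control libraries (blue) and the 3 IL-33 libraries (red), with the mean and SD as bars. The groups of Tnfsf14 lie far apart, at 42.3 to 47.7 CPM in control and 21.6 to 23.7 CPM with IL-33, while those of Tnfsf11 and Lta overlap.

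Fas ligand and TRAIL, the ligands of Fas and of the TRAIL death receptor, both fell. Fasl encodes Fas ligand, which engages Fas. The gene (ENSMUSG00000000817, chr1:161780689-161788495, minus strand) stood at 90.7, 96.2 and 93.7 CPM in control and at 77.2, 76.7 and 77.0 CPM with IL-33. The IL-33 libraries were nearly alike and all lay below the lowest control. The mean went from 93.5 ± 2.71 to 77.0 ± 0.256 CPM (SD, n = 3), a log2 fold change of -0.28 (SE 0.042, adjusted p = 3.6e-08 by edgeR), which is under a 1.5-fold change. The study, which required a 1.5-fold change in its sequencing, reported Fasl as not altered by IL-33. It also measured Fasl by real-time PCR.

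Tnfsf10 encodes TRAIL, which in mice engages the death receptor encoded by Tnfrsf10b. The gene (ENSMUSG00000039304, chr3:27317028-27342427, plus strand) stood at 126, 125 and 121 CPM in control and at 89.6, 82.9 and 97.0 CPM with IL-33. The IL-33 libraries were more spread than the controls, but the highest of them lay under the lowest control. The mean went from 124 ± 2.87 to 89.9 ± 7.05 CPM (SD, n = 3), a log2 fold change of -0.46 (SE 0.043, adjusted p = 8.8e-16), the second largest fall with an adjusted p under 0.05 among the 10.

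Of the lymphotoxins, Ltb fell, and no change was called for Lta, which had few counts. Ltb encodes lymphotoxin β, which anchors lymphotoxin α to the membrane in a heterotrimer that binds the lymphotoxin β receptor. The gene (ENSMUSG00000024399, chr17:35194439-35196320, plus strand) stood at 98.4, 99.3 and 97.1 CPM in control and at 83.6, 87.8 and 78.8 CPM with IL-33, without overlap. The mean went from 98.3 ± 1.11 to 83.4 ± 4.53 CPM (SD, n = 3), a log2 fold change of -0.24 (SE 0.043, adjusted p = 2.8e-06). Ltb had the smallest log2 change of the 7 ligands called.

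Lta encodes lymphotoxin α, which is also secreted as a homotrimer that binds the receptors of TNF. The gene (ENSMUSG00000024402, chr17:35203165-35205351, minus strand) had 48, 64 and 58 counts in control and 55, 37 and 49 counts with IL-33, or 2.26, 3.15 and 2.65 against 2.56, 1.76 and 2.21 CPM. The groups overlap, and the log2 fold change of -0.30 had a 95% interval from -0.77 to 0.17 (adjusted p = 0.38). At this depth neither a fall as large as that of Tnfsf10 nor no change was excluded by the interval.

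The costimulatory ligands moved in both directions. Tnfsf4 encodes OX40L, which engages OX40 on T cells and is better known from antigen-presenting cells. The gene (ENSMUSG00000026700, chr1:161395409-161418410, plus strand) stood at 25.4, 24.0 and 23.3 CPM in control and at 33.8, 30.8 and 33.5 CPM with IL-33. All IL-33 libraries lay above all controls, the only one of the 10 ligands for which that held. The mean rose from 24.2 ± 1.1 to 32.7 ± 1.64 CPM (SD, n = 3), a log2 fold change of 0.43 (SE 0.072, 95% interval 0.29 to 0.58, adjusted p = 6.1e-07), which ends just short of a 1.5-fold change.

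Tnfsf8 encodes CD30L, the ligand of CD30. The gene (ENSMUSG00000028362, chr4:63831308-63861347, minus strand) stood at 119, 123 and 123 CPM in control and at 93.7, 86.7 and 95.6 CPM with IL-33. The groups lay well apart, with more spread among the IL-33 libraries. The mean went from 122 ± 2.11 to 92.0 ± 4.68 CPM (SD, n = 3), a log2 fold change of -0.40 (SE 0.041, adjusted p = 1.4e-14).

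Tnfsf9 encodes the ligand of CD137, a costimulatory receptor of activated T cells. The gene (ENSMUSG00000035678, chr17:57105325-57107757, plus strand) had 105, 111 and 131 counts in control and 97, 86 and 80 with IL-33, or 4.95, 5.46 and 5.98 against 4.51, 4.10 and 3.60 CPM. The groups do not overlap, but the highest IL-33 library and the lowest control were close. The log2 fold change of -0.43 (SE 0.17, 95% interval -0.76 to -0.09) had an adjusted p of 0.0497, and that call was lost in 8 of 12 other fits, with adjusted p from 0.0415 to 0.197 over the 12. Of its 1290 exonic bases, 192 are shared with Gm11110, a lincRNA on the opposite strand. Gm11110 was itself called higher with IL-33 (log2 fold change 0.38, adjusted p = 0.012 by edgeR). Since it is not stated that counting used the strand, the level and the change of Tnfsf9 are uncertain.

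Cd40lg encodes CD40L, by which helper T cells activate B cells and dendritic cells. The gene (ENSMUSG00000031132, chrX:57212143-57224042, plus strand) had 92, 115 and 104 counts in control and 82, 77 and 87 with IL-33, or 4.33, 5.66 and 4.75 against 3.81, 3.67 and 3.92 CPM. The groups do not overlap, yet the log2 fold change of -0.37 (SE 0.18, 95% interval -0.72 to -0.02) did not pass the adjusted threshold (adjusted p = 0.11).

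Tnfsf11 encodes RANKL, which drives osteoclast formation and supports dendritic cells. The gene (ENSMUSG00000022015, chr14:78277445-78308043, minus strand) stood at 58.4, 57.1 and 60.5 CPM in control and at 49.5, 48.2 and 61.5 CPM with IL-33. IL-33 replicate 3 lay above every control and the other 2 IL-33 libraries below all of them. With all libraries the log2 fold change was -0.14 (SE 0.069, adjusted p = 0.13), and without IL-33 replicate 3 it was -0.26 (adjusted p = 3.0e-04). With all libraries and no filter on low counts it was called as well, at an adjusted p of 0.0438.

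Levels of different genes were compared as CPM per kb of exon, since longer genes collect more reads. The length was that of all annotated exons of a gene merged, 5266 bases for Tnfsf10, the longest of the 10. A gene expressed as a shorter transcript is placed too low, and which transcripts were expressed was not measured. In control, Ltb was the most abundant ligand at 64.8 CPM per kb, followed by Fasl at 48.3 and Tnfsf8 at 31.9. Tnfsf11, Tnfsf14 and Tnfsf10 came next at 26.2, 23.9 and 23.5, where the ranges of neighbours in this order overlap, and Tnfsf4 stood at 13.2. Tnfsf9 at 4.23, Cd40lg at 3.93 and Lta at 1.94 were the lowest, and the ranges of Tnfsf9 and Cd40lg overlap.

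With IL-33 the top 4 places were held by Ltb (55.0 CPM per kb), Fasl (39.7), Tnfsf8 (24.2) and Tnfsf11 (23.7), the last pair with overlapping ranges. Tnfsf14 moved below Tnfsf10 and Tnfsf4, to 12.1 CPM per kb against 17.1 and 17.8, and its range did not overlap that of Tnfsf10. As a share of the summed per-length level of the 10 ligands, Tnfsf14 went from 9.89% ± 0.502 to 6.14% ± 0.222 (SD, n = 3). Tnfsf4 went from 5.44% ± 0.299 to 8.99% ± 0.335, while Fasl held 19.9% ± 0.286 in control and 20.1% ± 0.350 with IL-33. The pool summed to 239 to 247 CPM per kb in control and to 194 to 201 with IL-33.

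**Figure D3:**
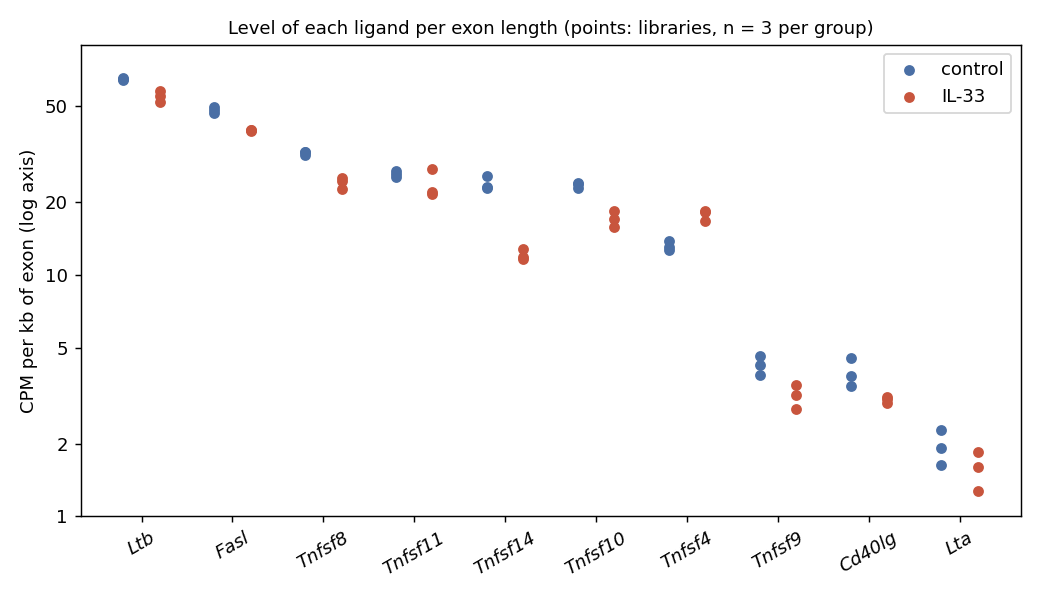
Level of each ligand in CPM per kb of exon, on a log axis, ordered by the control mean, with 1 point per library (3 control in blue, 3 IL-33 in red). Tnfsf14 drops from 23.9 to 12.1 CPM per kb on average and Tnfsf4 rises from 13.2 to 17.8, so that their order turns.

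Several ligands lie near each other in the genome, and the ratio of their counts was compared between the groups for 3 pairs. Fasl and Tnfsf4 lie 362.3 kb apart on chromosome 1. The log2 ratio of their counts (pseudocount 0.5) was 1.83, 2.00 and 2.01 in control and 1.19, 1.31 and 1.20 with IL-33, a difference of -0.71 (exact permutation test, two-sided, p = 0.1, the smallest that 3 against 3 can give, and 0.15 adjusted over 3 ratios). Tnfsf9 and Tnfsf14 lie 81.7 kb apart on chromosome 17, and their log2 ratio went from -3.01 ± 0.16 to -2.46 ± 0.23 (SD, n = 3), with the same exact p of 0.1 (0.15 adjusted). In both pairs the 3 control values lay on one side of the 3 IL-33 values. These ratios restate the fold changes of the same counts given above and are no separate evidence. How many other gene pairs lie apart in this way was not measured. The uncertainty given for Tnfsf9 holds for its ratio too. Lta and Ltb lie 6.8 kb apart with Tnf between them, and their log2 ratio was -5.19 ± 0.23 in control and -5.26 ± 0.32 with IL-33 (exact p = 0.7). Within 100 kb of the 10 ligands, 33 other genes were tested, 10 had an adjusted p under 0.05, where 27.5% of all genes tested did, and 1 passed the fold threshold too.

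That gene was Tnf itself, which encodes the founding member of the family, a proinflammatory cytokine. It had 349, 353 and 445 counts in control and 272, 212 and 258 with IL-33. The groups do not overlap, and the mean fell from 18.0 ± 2.02 to 11.5 ± 1.28 CPM (SD, n = 3), a log2 fold change of -0.65 (SE 0.11, adjusted p = 2.0e-07 by edgeR). It passed the 1.5-fold threshold with all libraries, but not without control replicate 3 (log2 fold change -0.56) or without IL-33 replicate 2 (-0.57). Tnfsf13b, which encodes the B cell survival factor BAFF, had a log2 fold change of -0.35 (SE 0.11, adjusted p = 0.013) with overlapping groups, and that call was lost in 4 of 12 other fits, with adjusted p up to 0.113. The other 6 ligands of the family on the list, Tnfsf12, Tnfsf13, Tnfsf15, Tnfsf18, Cd70 and Eda, had at most 14 counts in any library and were not tested.

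Of 14 receptor genes of these ligands, 12 were tested. With IL-33, 4 of them were higher and 1 was lower at an adjusted p under 0.05. Of all genes tested, 13.6% were called higher and 13.9% lower. Past the fold threshold as well there were 0 with edgeR, DESeq2 or limma-voom, also when the p was left unadjusted. With edgeR 4.87% of all genes tested were past both, a share at which a list this short may hold none. The highest in CPM was Tnfrsf9, which encodes CD137 and stood at 827, 898 and 960 CPM in control and 1288, 1394 and 1299 CPM with IL-33. All IL-33 libraries lay above all controls, and the log2 fold change was 0.57 (SE 0.070, adjusted p = 0.0057), just under a 1.5-fold change. It was past both thresholds at 0.62 when control replicate 3 was left out, and at 0.59 when either the first or the third IL-33 library was.

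Tnfrsf8, which encodes CD30, was also higher, at 461 ± 6.45 CPM in control and 576 ± 9.51 CPM with IL-33 (SD, n = 3, log2 fold change 0.32, SE 0.027, adjusted p = 1.2e-18). Tnfrsf10b, the TRAIL receptor, went from 15.9 ± 0.980 to 21.0 ± 1.75 CPM (log2 fold change 0.40, SE 0.091, adjusted p = 2.3e-04). For CD30, CD137 and TRAIL, then, the ligand transcript was called lower and the receptor transcript higher, with the uncertainty given for Tnfsf9. Tnfrsf23, which encodes a TRAIL decoy receptor, was higher (0.33, adjusted p = 0.023), and Tnfrsf1a, which encodes a TNF receptor, was lower (log2 fold change -0.19, adjusted p = 0.024). DESeq2 called neither of these.

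For the remaining receptors no change was called. Fas had a log2 fold change of -0.26 (SE 0.12, adjusted p = 0.11), Tnfrsf4, which encodes OX40, of -0.12 (SE 0.10, adjusted p = 0.45) and Tnfrsf14, which encodes HVEM, of -0.11 (SE 0.069, adjusted p = 0.25). Ltbr had 8 to 17 counts a library, and its estimate of -0.41 had an SE of 0.48. Tnfrsf11a, the RANKL receptor, had at most 13 counts in any library and Cd40 at most 2, and neither was tested.

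**Figure D4:**
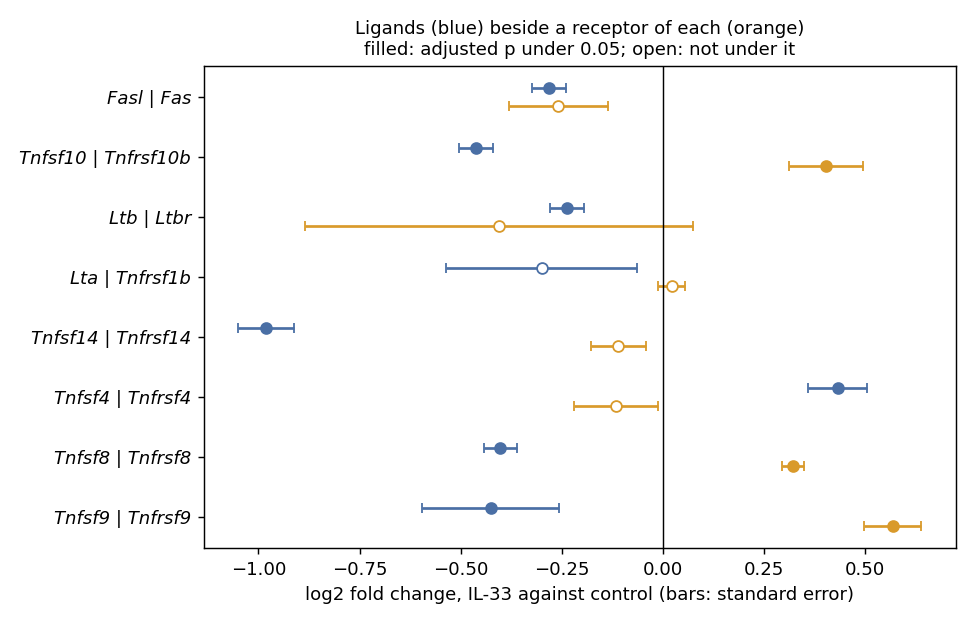
Log2 fold change, IL-33 against control, of a ligand (blue) and of a receptor of it (orange), with the standard error as a bar, 3 libraries per group. Filled points have an adjusted p under 0.05. For Tnfsf8, Tnfsf9 and Tnfsf10 the ligand lies left of 0 and the receptor right of it, at 0.32, 0.57 and 0.40, and for Tnfsf14 the ligand at -0.98 stands beside a receptor at -0.11.

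Among 14 genes that act just below these receptors, 3 were higher and 5 lower at an adjusted p under 0.05. Of all genes tested, 13.6% were called higher and 13.9% lower. Past the fold threshold as well there were 0 with edgeR, DESeq2 or limma-voom, also when the p was left unadjusted. With edgeR 4.87% of all genes tested were past both, a share at which a list this short may hold none. Traf1, an adaptor, had a log2 fold change of 0.25 (adjusted p = 2.7e-11) and Birc2, which encodes the ubiquitin ligase cIAP1, of 0.29 (adjusted p = 2.4e-10). Cflar was higher by less (0.086, adjusted p = 0.033 by edgeR). Map3k14, which encodes the kinase NIK of the noncanonical NF-κB pathway, fell by 0.37 on the log2 scale (adjusted p = 3.0e-08), and the adaptors Traf2 and Traf3 fell by 0.23 and 0.21. Birc3 (log2 fold change -0.10, adjusted p = 0.035 by edgeR) and Ikbkb (-0.10, adjusted p = 0.041) were lower too. The estimates of Birc2 and Birc3 thus had opposite signs, that of Birc3 being small. At an adjusted p under 0.05, DESeq2 called 5 of the 14 genes and limma-voom 8. Of 5 genes that cut or release membrane ligands, 4 were tested, among them the sheddases Adam10 and Adam17, and 0 were called by edgeR, DESeq2 or limma-voom, with 0 at an unadjusted p under 0.05.

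Markers of other cells were measured beside these ligands, since dendritic cells were in the conversion culture and other cells also make TNF family ligands. Of 12 dendritic and myeloid genes, 9 were tested, and 3 were higher and 2 lower at an adjusted p under 0.05. Of all genes tested, 13.6% were called higher and 13.9% lower, shares that stand beside the counts of the lists below too. The summed level of the 12 was 108 to 113 CPM in control and 88.1 to 94.1 CPM with IL-33. That sum moved in the direction of the ligands, chiefly through Itgax, which went from 54.6 ± 2.07 to 26.0 ± 1.59 CPM (SD, n = 3) and is also expressed by activated T cells. Cd74 was lower as well (log2 fold change -0.58, adjusted p = 0.0054 by edgeR). Itgam (log2 fold change 0.88, adjusted p = 1.3e-04) and Cd80 (0.48, adjusted p = 0.011) were higher. Of the other defining markers, Xcr1 stood at 10.5 to 13.4 CPM and Zbtb46 at 2.46 to 3.39 CPM over the 6 libraries, with no change called, and H2-Ab1 at 22.8 to 26.6 CPM in control and 29.7 to 31.5 CPM with IL-33 (log2 fold change 0.29, adjusted p = 0.0012). Flt3, Csf1r and Lyz2 had at most 13 counts in any library. Of 5 mast cell and basophil genes, 2 were tested and 1, Cpa3, was lower (log2 fold change -0.62), and the summed level was 14.9 to 19.7 CPM in control and 10.2 to 13.6 CPM with IL-33. Of 4 NK and innate lymphoid genes, 3 were tested, Kit was higher (log2 fold change 0.72) and Rora lower (-0.37), the sum was 589 to 606 CPM in control and 620 to 628 CPM with IL-33. Eomes made up most of that sum, at 348 to 375 CPM over the 6 libraries, and Ncr1 had at most 5 counts in any library. Of 5 B cell genes, 2 were tested and 0 were called by edgeR, DESeq2 or limma-voom, with 0 at an unadjusted p under 0.05, and the sum was 4.79 to 5.70 CPM in control and 5.30 to 6.35 CPM with IL-33. The part of such cells in the changes of the ligands was not tested, nor was that of the fall in Cd8a (log2 fold change -0.45, adjusted p = 2.4e-26).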

How the data were processed

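RNA-seq was analysed for 3 control libraries and 3 libraries with IL-33, grouped by their labels. Per gene and library, the authors deposited raw counts with no normalization. A pooled signal column deposited beside them, named as a mean of normalized counts, was not used. The submitters' processing notes name Bowtie 0.12.2 and mm8 without a role. Which program counted the reads, and whether it used the strand, is not given in the sources used here. Sample labels and the methods name different library kits. Symbols were found for 26072 of 26128 identifiers. Positions and exon lengths were taken from GENCODE M21 (GRCm38), which held 26086 of them.

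Genes were filtered with filterByExpr (minimum count 10, minimum total 15), scaled by TMM and compared in edgeR by the quasi-likelihood test (glmQLFTest after a robust glmQLFit, two-sided, no covariates), with Benjamini-Hochberg adjustment over 14671 genes. Thresholds were an adjusted p of 0.05 and a log2 fold change of 0.585, as in the study. Standard errors and 95% intervals came from the same model. Software comprised edgeR 4.0.16, DESeq2 1.42.0 and limma 3.58.1 under R 4.3.3. On simulated counts for this comparison, in which 200 genes were changed by a log2 fold change of 1, edgeR recovered 100% with 2 unchanged genes called of 14650 tested. The changed genes were drawn from those with higher counts, and all genes were given the same dispersion. Recovery of smaller changes, or of genes with few counts, was not tested.

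The 10 ligands, the lists and the tests were chosen with earlier results of these data known. Named genes were the 10 ligands, Tnf, the main receptor of each ligand, and list genes or neighbours within 100 kb past both thresholds. Other genes named were chosen after their values were seen. Alternatives were DESeq2, limma-voom, other size factors, no filter, a stricter filter (1 CPM throughout a group), a replicate block, each library left out and a test against the fold threshold. Within each group, every pair of libraries differed beyond sampling noise.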

Additional observations from a re-analysis of the deposited data

How the results depend on the processing

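Of 120 alternative fits of the 10 ligands, 110 kept direction and side of the threshold, and 0 changed direction. Tnfsf9 lost its call in 8, with DESeq2 (adjusted p = 0.140), limma-voom (0.0614), no filter (0.0870), the replicate block (0.0660) and without control replicates 2 or 3 or IL-33 replicates 2 or 3. Tnfsf11 gained one in 2, with no filter (adjusted p = 0.0438) and without IL-33 replicate 3. Tnfsf14 was the one ligand past both thresholds in every fit, the test against the 1.5-fold threshold included. Tnfsf13b lost its call with DESeq2 (0.0611) and without control replicates 2 or 3 or IL-33 replicate 2. Over all genes, 714 were past both thresholds, 501 with DESeq2, 621 to 719 with 1 library left out and 113 when tested against the fold threshold. Of the other family, receptor and signalling genes, 1 (Tnf) was past both thresholds, 0 against the fold threshold and 0 to 2 with 1 library left out (Tnf, Tnfrsf9). At an adjusted p under 0.05, edgeR called 5 receptors and 8 signalling genes, and DESeq2 3 and 5. The log2 ratio of Lta to Ltb differed between the groups by -0.07, but by 0.05 when control replicate 2 was left out and by 0.11 when IL-33 replicate 2 was, and ran from -0.19 to 0.11 over all libraries left out.

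Replicate numbers are shared by both groups. Deviations from the group mean correlated at 0.0116, 0.00317 and 0.0107 between libraries of the same number. Between libraries of different numbers the correlations ran from -0.0138 to 0.00287. Values this small cannot show whether libraries of the same number share a mouse, conversion or well. A fit with the replicate block gave 666 genes past both thresholds and 6 ligands with an adjusted p under 0.05, against 7. At 37 to 64 counts a library for Lta and 77 to 115 for Cd40lg, depth limits what could be called.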
